A study of Mus musculus with 9 samples.

Results

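The genes described here are the solute carriers (SLC genes) with a measurable transcript level in synovial lining macrophages, synovial interstitial macrophages or bone marrow-derived macrophages of the mouse. A protein-coding gene was taken as a member when its symbol was Slc followed by a digit and its mean level reached 5 CPM (counts scaled by the plain total of each library) in at least 1 of the 3 groups, and 7 iron and arginine or cystine carriers (Slc40a1, Slc11a1, Slc11a2, Slc48a1, Slc7a1, Slc7a2 and Slc7a11) were left out by name. This gave 181 members of 43 families out of 371 protein-coding genes with such a symbol, in a table of 53465 genes. Members were thus selected on their level in all 9 libraries, and their levels are given as a description. A level of 5 CPM was reached in all 3 groups by 150 members, in 2 groups by 17 and in 1 group by 14. The 3 members nearest the threshold were Slc22a4 with a highest group mean of 5.49 CPM, Slc3a1 with 5.15 CPM and Slc25a43 with 5.02 CPM, and the nearest genes outside it were Slc12a3 with 4.91 CPM, Slc22a6 with 4.49 CPM and Slc25a35 with 4.32 CPM. Of the 181, 4 members are named after an SLC gene but are not carriers themselves (Slc4a1ap, Slc7a6os, Slc9a3r1 and Slc9a3r2), and they are counted apart from the carriers.

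Messenger RNA of 9 libraries was sequenced, with 3 libraries in each of 3 groups. Lining macrophages (libraries A, B and C) were sorted from the synovial tissue of hind paws of healthy Cx3cr1-GFP mice as CD45+, CD11b+, F4/80+ and GFP+ cells, and interstitial macrophages (libraries D, E and F) were the GFP- cells of the same gate and strain. In these mice GFP reports the Cx3cr1 locus, so the GFP gate stands for Cx3cr1 transcription. Bone marrow-derived macrophages (BMDM, libraries G, H and I) were grown from C57BL/6 marrow for 5 days in MCSF-conditioned medium. BMDM differed from the sorted cells in strain, tissue, culture and the absence of tissue dissociation, and these cannot be told apart. Both sorted groups carried the reporter strain and BMDM did not, and ages were not given in the labels. Nothing in the labels says whether libraries of a group came from separate mice or cultures, so each p-value measures the spread between these libraries only.

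Solute carriers are membrane proteins that move small molecules and ions across the plasma membrane and the membranes of organelles, most of them by exchange or by coupling to a sodium or proton gradient. In macrophages they supply glucose and amino acids, export lactate, recycle the products of lysosomal digestion, exchange metabolites between mitochondria and cytosol, load the Golgi with nucleotide sugars and set zinc, phosphate and pH balance. Several work as heterodimers or need a chaperone, so the transcript of a carrier does not by itself give transport activity.

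Depth differed between groups. Total counts per library were 2194920 to 11137451 in lining, 2238261 to 10807462 in interstitial and 19427273 to 22499823 in BMDM, so that 3 counts corresponded to 0.133 CPM in the deepest library and 1.37 CPM in the shallowest. Members took 1.15% to 1.33% of the counts of each library. Macrophage markers were present in every group, with a summed level over 8 genes of 9376 to 10980 CPM in lining, 6480 to 9620 CPM in interstitial and 5167 to 5437 CPM in BMDM and none of the 8 at 0 in a group. Cx3cr1 matched the gate, at 663 to 775 CPM in lining, 2.66 to 7.86 CPM in interstitial and 236 to 311 CPM in BMDM. Transcripts of 7 fibroblast markers summed to 170 to 303 CPM in lining, 191 to 692 CPM in interstitial and 2.03 to 2.73 CPM in BMDM, and all 7 were higher in each sorted group than in BMDM. In contrast, 8 genes of dividing cells summed to 145 to 403 CPM in lining, 140 to 380 CPM in interstitial and 3288 to 3502 CPM in BMDM, and all 8 were lower in each sorted group. Their part in the differences from BMDM was not tested, and in bulk RNA fewer cells of a type and less RNA per cell cannot be told apart. Lining C and interstitial F stood apart from the other libraries of their groups in genes of the low-oxygen response, whose summed level over 8 genes was 1053 CPM in lining C against 744 and 658 CPM in lining A and B, and 2077 CPM in interstitial F against 577 and 502 CPM in interstitial D and E. Results that rest on these libraries are given with and without them.

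Per unit of transcript length, a few members carried much of the SLC transcript pool. On the TPM scale (counts per exon base, from the gene lengths in the table, scaled to a common sum), the taurine carrier Slc6a6 was the most abundant member in lining, with a mean of 899 TPM, against 593 TPM in interstitial and 552 TPM in BMDM. Slc25a5, an adenine nucleotide carrier of the inner mitochondrial membrane, had means of 582 TPM in lining, 645 TPM in interstitial and 767 TPM in BMDM and was the most abundant member in the last 2 groups. Slc3a2, the heavy chain that brings several amino acid light chains to the plasma membrane, ranked 3, 3 and 4 among the members with 335, 276 and 282 TPM in lining, interstitial and BMDM. The 8 most abundant members of a group held between 29.4% and 34.1% of the summed member TPM of each library. Slc7a8, a light chain for neutral amino acids, Slc2a6, a hexose carrier, and Slc43a2, a carrier of large neutral amino acids, were among the top 8 of lining with 186, 179 and 177 TPM. The sodium-coupled neutral amino acid carrier Slc38a2 was among those of interstitial with 169 TPM and of BMDM with 298 TPM. Slc25a5 and the zinc carrier Slc39a1 each have a copy named as a pseudogene in the table, so reads shared with the copy could not be placed and their levels are uncertain.

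The balance of roles differed modestly. Amino acid carriers held 26.8% to 27.1% of the member TPM in lining libraries, 21.7% to 23.8% in interstitial libraries and 25.0% to 25.6% in BMDM libraries. Mitochondrial carriers held 22.1% to 23.4% in lining, 26.3% to 26.9% in interstitial and 28.6% to 29.6% in BMDM. For both roles the ranges of the 3 groups did not overlap. The amino acid role includes the taurine carrier Slc6a6, with means of 899 TPM in lining, 593 TPM in interstitial and 552 TPM in BMDM. Summed member TPM was 8458 to 8773 in lining, 8151 to 8392 in interstitial and 9067 to 9201 in BMDM. The lead of lining in this role may therefore rest on 1 gene, and shares without Slc6a6 are not given. Shares of one pool depend on each other, so a higher share of one role lowers the others.

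The first comparison asked how the 2 synovial populations differ. Of the 181 members, 12 were higher in lining than in interstitial and 2 were lower (edgeR quasi-likelihood test over 12610 genes, adjusted p under 0.05), which is 7.73% of the members. The background was close to this: 5.79% of all genes tested were called, 6.73% of protein-coding genes with 5 CPM or more in a group, 3.74% of all genes as higher and 2.05% as lower. The members' median log2 fold change was 0.03, beside -0.01 over all genes tested. Libraries of the 2 groups did not overlap for 50 members. The same count over all genes was not made, so this number is not read as a difference. The counts moved with single libraries: without interstitial F, 19 members were higher and 7 lower, and without lining A or interstitial E none was lower. Over all genes, 6.84% were called without interstitial F, 3.02% without lining A, 4.19% without interstitial E and 3.38% with only the 2 groups. With only the 2 groups in the fit, 7 members were higher and 0 lower, and the calls of Slc6a6, Slc25a1, Slc25a11, Slc8b1, Slc43a2, Slc25a24 and Slc35g1 were lost. Higher in lining were carriers of folate, fatty acids, choline, zinc, cationic amino acids, creatine, taurine and citrate, and lower were the orphan Slc35g1 and a mitochondrial ATP-magnesium carrier. By role, the calls were 4 of 24 amino acid carriers, 2 of 16 carriers of lipids and organic ions, 1 of 24 ion carriers, 1 of 13 carriers of vitamins and nucleosides, 1 of 22 metal carriers and 1 of the 4 members that are no carriers, all higher in lining, together with 2 higher and 1 lower of 34 mitochondrial carriers and 1 lower of 21 carriers of the secretory pathway. None of the 12 sugar carriers, 8 organic acid carriers or 3 peptide carriers was called.

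**Figure D1:**
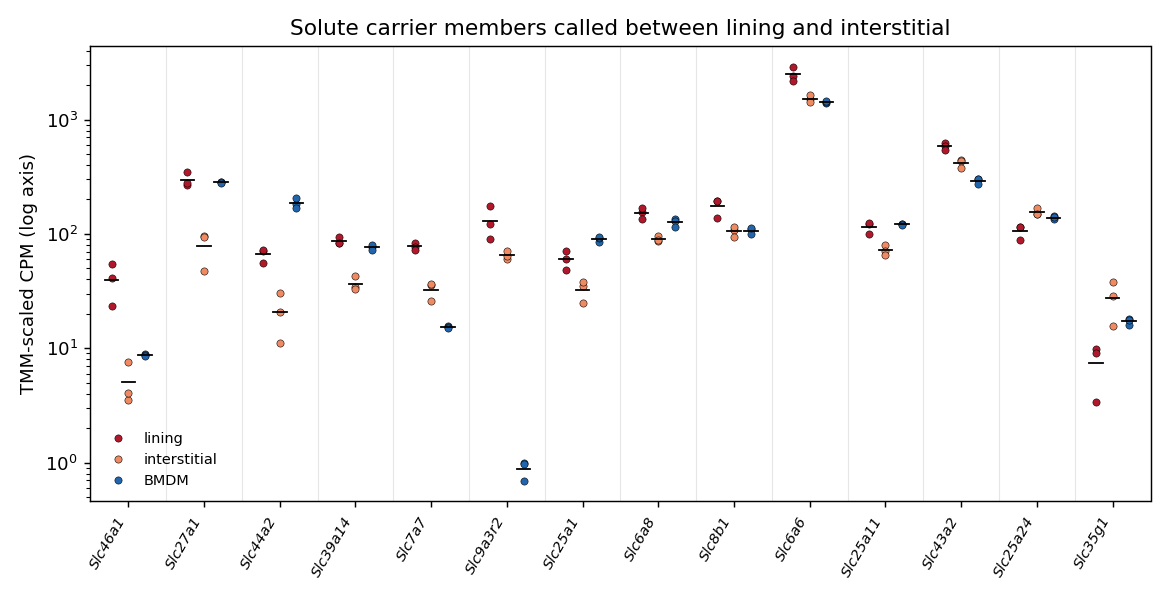
Level of the 14 members called between lining and interstitial macrophages, in TMM-scaled CPM on a log axis. Each dot is 1 library, the bars mark the group mean, and the 3 colours stand for lining, interstitial and BMDM. For all 14 members the lining and interstitial dots do not overlap, and for Slc9a3r2 the BMDM dots lie at or under 0.995 CPM.

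The largest difference in favour of lining was that of Slc46a1 (ENSMUSG00000020829, GRCm38 chr11:78465697-78472059, plus strand), the proton-coupled folate carrier. Its level, in CPM scaled by TMM factors as for every CPM value from here on, was 54.8, 41.3 and 23.3 in lining A, B and C, 3.55, 7.55 and 4.04 in interstitial D, E and F, and 8.86, 8.79 and 8.62 in BMDM G, H and I. All 3 lining libraries lay above the other 6. The log2 difference of lining from interstitial was 2.89 ± 0.39 (SE, n = 3 against 3; edgeR adjusted p = 0.000924), and lining also exceeded BMDM by 2.18 ± 0.36 (adjusted p = 0.000474). Interstitial and BMDM were not called apart, with a log2 difference of -0.71 ± 0.38 (adjusted p = 0.143). Both calls held in each of the 9 fits that left out 1 library.

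Fatty acid and choline carriers came next. Slc27a1 (ENSMUSG00000031808, chr8:71568882-71587302, plus strand), a fatty acid transport protein of the plasma membrane, was at 269, 347 and 279 CPM in lining, 47.0, 96.5 and 93.5 CPM in interstitial and 284, 286 and 278 CPM in BMDM. Interstitial was the low group: it lay 1.90 ± 0.23 below lining (adjusted p = 0.000366) and 1.82 ± 0.23 below BMDM (adjusted p = 4.28e-05) on the log2 scale, while lining and BMDM overlapped. Slc44a2 (chr9:21320698-21355028, plus strand), a choline carrier-like protein, was at 71.3, 55.5 and 72.1 CPM in lining, 20.8, 11.1 and 30.4 CPM in interstitial and 183, 168 and 205 CPM in BMDM. The 3 groups formed separate steps, with lining 1.70 ± 0.29 above interstitial (adjusted p = 0.00507) and 1.49 ± 0.28 below BMDM (adjusted p = 0.001) in log2 units. The second fatty acid carrier of the fixed list, Slc27a4, showed no call, with group means of 46.8 ± 6.74, 52.8 ± 9.10 and 54.2 ± 2.24 CPM (SD, n = 3 each).

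The metal carrier called between the synovial populations was Slc39a14 (chr14:70303469-70351425, minus strand), which takes up zinc, iron and manganese. It was at 83.4, 93.4 and 83.3 CPM in lining, 34.1, 33.2 and 42.9 CPM in interstitial and 76.8, 80.5 and 72.6 CPM in BMDM. Interstitial was again the group with lower values, 1.24 ± 0.16 below lining (adjusted p = 0.000684) and 1.06 ± 0.16 below BMDM (adjusted p = 0.000187) on the log2 scale. The calls of Slc27a1, Slc44a2 and Slc39a14 held in all 9 fits that left out 1 library.

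Among amino acid carriers, 4 were higher in lining. Slc7a7 (chr14:54369442-54417780, minus strand), the light chain that exports cationic amino acids in exchange for neutral ones together with Slc3a2, was at 83.9, 76.8 and 72.5 CPM in lining, 25.7, 35.9 and 36.3 CPM in interstitial and 15.6, 15.3 and 14.9 CPM in BMDM. No library of one group reached into another. Lining exceeded interstitial by 1.24 ± 0.19 (adjusted p = 0.00214) and BMDM by 2.34 ± 0.19 (adjusted p = 1.42e-06), and interstitial exceeded BMDM by 1.11 ± 0.19 (adjusted p = 0.00051), in log2 units. These 3 calls held in every fit without 1 library. Its partner Slc3a2 showed no call in any comparison, with means of 385 ± 15.1, 298 ± 52.3 and 304 ± 17.4 CPM in lining, interstitial and BMDM (SD, n = 3 each).

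Slc6a6 (chr6:91684053-91759066, plus strand), the taurine carrier, was at 2899, 2416 and 2188 CPM in lining, 1525, 1631 and 1418 CPM in interstitial and 1402, 1420.0 and 1454 CPM in BMDM. Lining stood above both other groups, by 0.71 ± 0.14 over interstitial (adjusted p = 0.00972) and 0.81 ± 0.14 over BMDM (adjusted p = 0.000524) on the log2 scale. The creatine carrier Slc6a8 (chrX:73673150-73682502, plus strand) was at 155, 167 and 134 CPM in lining and 95.3, 86.4 and 88.4 CPM in interstitial, a log2 difference of 0.76 ± 0.14 (adjusted p = 0.00614). Interstitial Slc6a8 was also below the 135, 130.5 and 114 CPM of BMDM, by 0.49 ± 0.14 (adjusted p = 0.0104), a call lost without BMDM G (adjusted p = 0.0567). Slc43a2 was at 619.8, 588 and 542 CPM in lining, 446, 437 and 377 CPM in interstitial and 301, 300.2 and 271 CPM in BMDM. The step from lining to interstitial, 0.47 ± 0.12 (adjusted p = 0.0462), was lost when lining A or B, interstitial E or F, or any 1 BMDM library was left out (adjusted p up to 0.145). The log2 differences of Slc43a2 from BMDM, 1.0 ± 0.13 in lining (adjusted p = 5.01e-05) and 0.53 ± 0.12 in interstitial (adjusted p = 0.00443), held in every such fit.

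The other calls between lining and interstitial were smaller or rested on single libraries. Slc25a1, the mitochondrial citrate exporter, had means of 60.1 ± 11.4 CPM in lining and 32.6 ± 6.97 CPM in interstitial (log2 difference 0.86 ± 0.20, adjusted p = 0.0257), and the call was lost without lining A or B, interstitial E or any 1 BMDM library (adjusted p up to 0.0995). Slc25a11, the mitochondrial oxoglutarate carrier, had 115 ± 13.0 against 72.2 ± 7.07 CPM (0.67 ± 0.14, adjusted p = 0.0173), and its call was lost without lining A or BMDM I and without both lining C and interstitial F (adjusted p up to 0.0613). Slc8b1, the mitochondrial sodium-calcium exchanger, had 176 ± 31.8 against 106 ± 11.0 CPM (0.73 ± 0.16, adjusted p = 0.0178), a call lost without lining A or B (adjusted p up to 0.0819). In the opposite direction, Slc25a24, the ATP-magnesium and phosphate exchanger, had 106 ± 14.8 against 156 ± 11.9 CPM (-0.56 ± 0.14, adjusted p = 0.0339), a call lost without lining A or B, interstitial E or any 1 BMDM library (adjusted p up to 0.0953). Slc35g1 was at 3.40, 9.93 and 9.01 CPM in lining and 38.1, 28.8 and 15.5 CPM in interstitial (-1.80 ± 0.41, adjusted p = 0.0234), a call that ended on leaving out lining A, lining B, interstitial D or interstitial E (adjusted p up to 0.0722).

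The next comparisons set each synovial population against BMDM. Both used the same 3 BMDM libraries, so the 2 results are not independent and no overlap between them is given as a finding. In lining, 50 members were higher than in BMDM and 41 lower, which is 50.3% of the members; 43.5% of all genes tested were called, 46.7% of protein-coding genes with 5 CPM or more in a group, 23.1% of all genes as higher and 20.5% as lower. In interstitial, 50 members were higher and 42 lower, which is 50.8%; the background was 44.8% of all genes, 48% of protein-coding genes with 5 CPM or more in a group, 23.4% of all genes as higher and 21.3% as lower. The members' share was thus near that of other expressed genes in both comparisons. Their median log2 fold change was 0.00 in lining and -0.01 in interstitial, beside 0.00 and -0.01 over all genes. The 31 members under 5 CPM in at least 1 group could be members only through a group where they were high; over the other 150, the calls were 37 higher and 32 lower in lining and 35 higher and 35 lower in interstitial. Of all 181, 67 were called in none of the 3 comparisons.

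By role, calls ran in both directions. Of 34 mitochondrial carriers, 2 were higher and 11 lower in lining than in BMDM, and 3 were higher and 8 lower in interstitial, with median log2 fold changes of -0.29 and -0.23. Their called share, 38.2% and 32.4%, was below that of all genes tested (43.5% and 44.8%), and 9 of the 13 lining calls and 4 of the 11 interstitial calls were lost in at least 1 fit without a library. Of 16 carriers of lipids and organic ions, 8 were higher and 1 lower in lining, and 10 higher and 3 lower in interstitial, with medians of 1.25 and 1.22. These values rest on members that were under 5 CPM in a group: over the 8 carriers of this role at 5 CPM or more in all 3 groups, 2 were higher and 1 lower in lining and 3 higher and 3 lower in interstitial, with medians of -0.07 and 0.02. The same restriction left the mitochondrial medians at -0.29 and -0.28 over 30 carriers. Amino acid carriers split, with 7 higher and 7 lower of 24 in lining and 6 higher and 11 lower in interstitial. Of 24 ion carriers, 9 were higher and 5 lower in lining and 7 higher and 4 lower in interstitial. Metal carriers gave 6 higher and 6 lower of 22 in lining and 6 higher and 5 lower in interstitial, and the 21 carriers of nucleotide sugars and the secretory pathway gave 4 higher and 6 lower, then 6 higher and 6 lower. Of 13 vitamin and nucleoside carriers, 6 were higher and 2 lower in lining and 4 higher and 1 lower in interstitial. These counts describe the members and were not tested between roles.

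**Figure D2:**
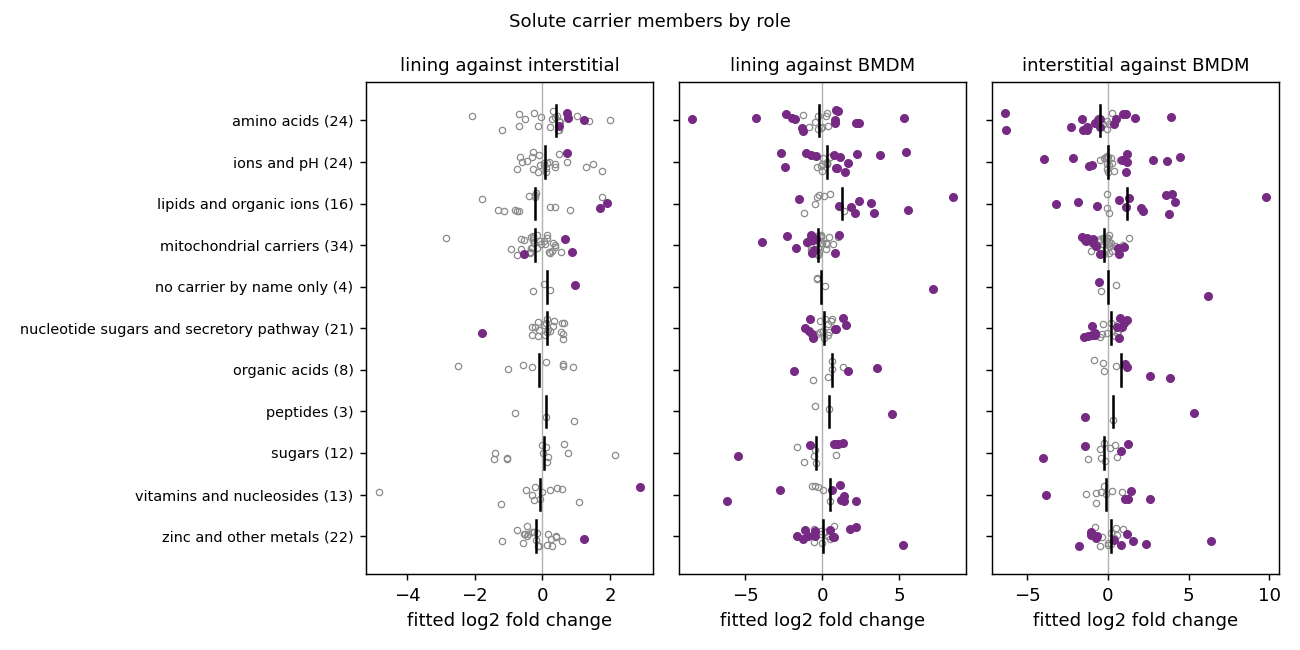
Log2 fold change of each of the 181 members by role, in 1 panel for each of the 3 comparisons. Each dot is a member, filled where edgeR called it at adjusted p under 0.05, and the short line is the median of the role. Mitochondrial carriers lie mostly below 0 against BMDM, with medians of -0.29 and -0.23, and carriers of lipids and organic ions have medians of 1.25 and 1.22, which are -0.07 and 0.02 over those at 5 CPM or more in all 3 groups.

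Carriers of the osmolytes betaine and myo-inositol were far higher in BMDM than in either sorted group. Slc6a12 (ENSMUSG00000030109, chr6:121343076-121365775, plus strand), which takes up betaine and GABA, was at 142, 86.0 and 188 CPM in BMDM, 0.485, 0.477 and 0 CPM in lining and 0, 1.73 and 2.55 CPM in interstitial. Every BMDM library stood far above every sorted library. Slc6a12 reached 5 CPM in BMDM only, so it is a member only through the group where it is high, and its difference is a description. The fitted log2 difference was -8.44 ± 0.61 in lining (adjusted p = 6.18e-07) and -6.35 ± 0.49 in interstitial (adjusted p = 1.1e-06). Without lining B the lining group held 1 count, and the ratio of BMDM to lining was 662 with a counting interval of 119 to 26100. Slc5a3 (ENSMUSG00000089774, chr16:92058322-92087473, plus strand), the sodium-coupled myo-inositol carrier, was at 129, 92.3 and 178 CPM in BMDM, 0.970, 4.49 and 1.5 CPM in lining and 7.98, 10.2 and 5.74 CPM in interstitial. Here too no sorted library came near the BMDM values, with log2 differences of -5.45 ± 0.43 in lining (adjusted p = 9.84e-07; -6.75 without lining B) and -4.02 ± 0.38 in interstitial (adjusted p = 4.41e-06). BMDM H was the lowest and BMDM I the highest of the 3 BMDM libraries for both genes.

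Slc6a13 (chr6:121300227-121337733, plus strand), another GABA and taurine carrier and the neighbour of Slc6a12, was at 5.62, 5.66 and 5.99 CPM in BMDM. With 3 counts in lining and 1 in interstitial, the ratio of BMDM to lining was 29.2 (counting interval 9.91 to 142) and to interstitial 103 (18.4 to 4090); these intervals are exact at the 95% level and cover counting error only. The first became 9.07 without lining B and 72.2 without lining C, and the second 40.1 on leaving out interstitial E; leaving out interstitial F, which held the 1 count, gave a bound of at least 25.4-fold. The taurine carrier Slc6a6 did not share this pattern, as given above. Nfat5, which encodes the transcription factor of the osmotic response, was called in no comparison, at 69.3, 108 and 199 CPM in lining, 100, 158 and 111 CPM in interstitial and 76.4, 67.3 and 77.1 CPM in BMDM. Akr1b3, the aldose reductase that makes the osmolyte sorbitol, was at 130, 125 and 127 CPM in lining, 139, 89.3 and 78.4 CPM in interstitial and 169, 160 and 162 CPM in BMDM, and was called lower in interstitial than in BMDM (adjusted p = 0.00869) and not in lining (adjusted p = 0.126). Both genes were picked after the values of the carriers had been seen.

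Carriers of neutral amino acids differed from BMDM in both directions. A list of 6 carriers of glutamate, glutamine and neutral amino acids also held the taurine carrier Slc6a6 and the orphan Slc38a6. In lining, 2 of the list were higher than in BMDM, which were Slc6a6 and Slc38a6, and 3 were lower. In interstitial, 1 was higher, which was Slc38a6, and 2 were lower. The called shares were 83.3% and 50% of the list, beside 43.5% and 44.8% of all genes tested. Slc7a5 (chr8:121881150-121907694, minus strand), the light chain for large neutral amino acids, was at 15.0, 19.1 and 28.9 CPM in lining, 34.1, 22.0 and 46.3 CPM in interstitial and 81.5, 85.6 and 79.6 CPM in BMDM. Both sorted groups lay below BMDM and overlapped each other, with log2 differences of -1.97 ± 0.29 in lining (adjusted p = 0.000174) and -1.28 ± 0.28 in interstitial (adjusted p = 0.00257). Slc38a2 was at 146, 174 and 177 CPM in lining, 193, 236 and 286 CPM in interstitial and 424, 388 and 451 CPM in BMDM, with differences of -1.34 ± 0.16 (adjusted p = 3.07e-05) and -0.82 ± 0.16 (adjusted p = 0.00113). The glutamine carrier Slc38a1 had means of 76.2 ± 9.32, 62.8 ± 15.9 and 187 ± 2.04 CPM, and differed from BMDM by -1.28 ± 0.18 in lining (adjusted p = 0.000157) and -1.57 ± 0.19 in interstitial (adjusted p = 3.13e-05). The aromatic amino acid carrier Slc16a10 had means of 33.8 ± 4.67, 24.2 ± 4.61 and 118 ± 7.07 CPM, and differed by -1.80 ± 0.18 (adjusted p = 9.53e-06) and -2.29 ± 0.19 (adjusted p = 1.42e-06). These calls held in every fit without 1 library.

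Other carriers of the same substrates did not follow. Slc1a5, which exchanges glutamine for other neutral amino acids, was called in no comparison and had means of 73.6 ± 6.48, 88.1 ± 18.8 and 89.7 ± 3.06 CPM in lining, interstitial and BMDM. Slc1a4, a related exchanger, was lower in lining than in BMDM by 2.38 ± 0.65 (adjusted p = 0.0105) on the log2 scale, a value that was -1.75 without lining B and -3.37 without lining C, and it was not called in interstitial (adjusted p = 0.115). Slc7a8 was lower in interstitial than in BMDM by 0.61 ± 0.15 (adjusted p = 0.00656), and Slc7a6, another light chain, by 1.30 ± 0.34 (adjusted p = 0.00759), while neither was called in lining (adjusted p = 0.558 and 0.053). Slc38a6, an orphan relative of Slc38a2, went the opposite way, at 51.4, 69.1 and 65.7 CPM in lining, 44.3, 46.3 and 40.8 CPM in interstitial and 15.0, 13.5 and 13.0 CPM in BMDM. It was higher than in BMDM by 2.17 ± 0.19 in lining (adjusted p = 2.59e-06) and 1.67 ± 0.19 in interstitial (adjusted p = 2.1e-05).

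A list of 12 genes of the amino acid response, which cells induce when amino acids run short, gave 9 lower and 1 higher in lining than in BMDM, and 6 lower and none higher in interstitial, which is 83.3% and 50% of the list beside 43.5% and 44.8% of all genes tested. The lining calls of Atf4, Atf5 and Sesn2 (lower) and Eif2ak3 (higher) were each lost in several fits without 1 library (adjusted p up to 0.152), as was the interstitial call of Sesn2 (adjusted p up to 0.0944). Without lining C and interstitial F, Atf4, Trib3, Atf5 and Eif2ak4 were also called lower in interstitial than in BMDM (edgeR adjusted p = 0.029, 0.00817, 0.000355 and 0.0403). The 6 interstitial calls of the main fit held there, where 51.1% of all genes were called. The smaller interstitial share thus depended on these libraries. Asns, which makes asparagine, was at 0.970, 2.19 and 9.39 CPM in lining, 9.75, 4.28 and 10.4 CPM in interstitial and 110.0, 113 and 116 CPM in BMDM. Of 26 genes of amino acid sensing by mTORC1 at the lysosome, 4 were higher and 5 lower in lining than in BMDM, and the same numbers applied in interstitial against BMDM, a share of 34.6% in both; 4 of the 9 lining calls and 3 of the 9 interstitial calls were lost in a fit without 1 library. None of the 12 response genes and 1 of the 26 sensing genes, Rptor, was called between lining and interstitial, and the Rptor call (adjusted p = 0.0241) was lost without lining A or B, interstitial F or any 1 BMDM library and with only the 2 groups in the fit (adjusted p up to 0.0976).

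**Figure D3:**
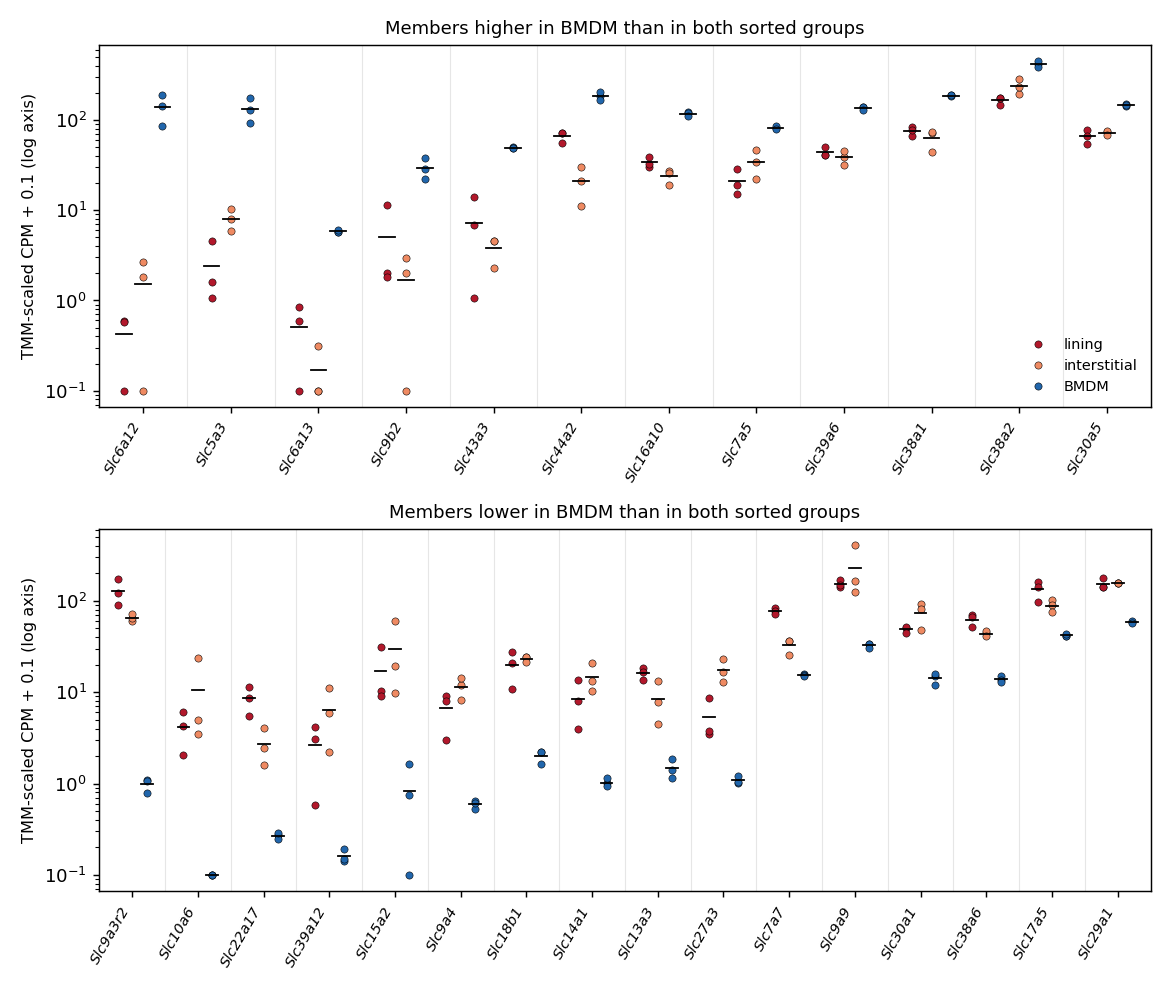
Level of named members with higher values in BMDM (12 members, upper panel) and with lower values in BMDM (16 members, lower panel), in TMM-scaled CPM plus 0.1 on a log axis. Each dot is 1 library and colours stand for the groups. Slc6a12 and Slc5a3 show wide gaps in the upper panel, with BMDM at 86.0 to 188 CPM and 92.3 to 178 CPM, and Slc9a3r2 in the lower panel, with BMDM at 0.696 to 0.995 CPM.

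Zinc carriers of different membranes differed from BMDM in both directions. Slc30a1 (ENSMUSG00000037434, chr1:191906767-191913247, plus strand), the zinc exporter of the plasma membrane and a known target of the metal-responsive transcription factor, was at 50.9, 51.2 and 43.9 CPM in lining, 91.8, 80.9 and 48.0 CPM in interstitial and 15.1, 15.6 and 11.8 CPM in BMDM. Every sorted library lay above BMDM, with log2 differences of 1.78 ± 0.24 in lining (adjusted p = 0.000104) and 2.37 ± 0.25 in interstitial (adjusted p = 1.02e-05). Slc39a6 and Slc30a5, which bring zinc into the cytosol and into the early secretory pathway, were lower than in BMDM. For Slc39a6 the means were 44.1 ± 5.46, 39.0 ± 6.88 and 137 ± 6.53 CPM, with differences of -1.64 ± 0.17 (adjusted p = 1.04e-05) and -1.80 ± 0.17 (adjusted p = 4.42e-06). For Slc30a5 they were 65.9 ± 12.2, 72.4 ± 3.68 and 146 ± 3.14 CPM, with differences of -1.16 ± 0.15 (adjusted p = 8.23e-05) and -1.02 ± 0.15 (adjusted p = 0.000195). The vesicular carrier Slc30a7 was called in no comparison, and Slc39a7 was not called either, with 80.1% of its exon bases shared with an overlapping gene on the same strand and so outside its count.

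Slc39a12, a zinc importer best known from brain, was at 0.485, 4.10 and 3.0 CPM in lining, 11.1, 5.82 and 2.12 CPM in interstitial and 0.0432, 0.0497 and 0.0922 CPM in BMDM. Its fitted log2 differences were 5.21 ± 1.05 in lining (adjusted p = 0.00181; 4.59 without lining B) and 6.41 ± 1.08 in interstitial (adjusted p = 0.000493; 5.78 without interstitial D). Slc39a12 was under 5 CPM in BMDM and is a member only through sorted cells, so these differences are a description. The metallothioneins, zinc-binding proteins that the same factor induces, were looked at after the values of Slc30a1 had been seen. Mt1 was at 57.2, 78.2 and 52.9 CPM in lining, 142, 121 and 122 CPM in interstitial and 74.6, 89.1 and 80.6 CPM in BMDM, and was called lower in lining than in interstitial (adjusted p = 0.00468) and higher in interstitial than in BMDM (adjusted p = 0.00769), the latter call lost without BMDM G (adjusted p = 0.0515). Mt2 was at 12.1, 14.4 and 36.4 CPM in lining, 39.5, 36.9 and 108 CPM in interstitial and 7.78, 10.7 and 7.75 CPM in BMDM, and of the 3 comparisons only that of interstitial with BMDM was called (2.81 ± 0.49, adjusted p = 0.00076). Lining lay above BMDM for Mt2 without a call (adjusted p = 0.0581), while for Mt1 the 2 groups overlapped. Slc30a1 was not called between lining and interstitial, where its log2 difference was -0.59 ± 0.24 (adjusted p = 0.204).

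The stretch before the annotated start of Slc30a1 is shown because it holds a match to the core of the metal response element. The core was searched as TGCACNC or TGCGCNC on both strands of the 250 bases before each start, and 21.4% of all 32851 RefSeq promoters of GRCm38.p6 and 29.1% of the 141 members found in that table hold it. The RefSeq start lies 14 bases downstream of the gene start in the count table. The 200 bases before the RefSeq start (chr1:191906581-191906780, plus strand) hold 1 match, on the minus strand, in capitals.
Slc30a1: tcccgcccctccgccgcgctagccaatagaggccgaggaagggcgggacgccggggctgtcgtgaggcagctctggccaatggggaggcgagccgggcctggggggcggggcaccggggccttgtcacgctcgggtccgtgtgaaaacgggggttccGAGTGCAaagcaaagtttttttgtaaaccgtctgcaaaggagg

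Several glucose and lactate carriers varied widely among the interstitial libraries. Slc2a1 (ENSMUSG00000028645, chr4:119108711-119137983, plus strand), the widely expressed glucose carrier, was at 24.7, 38.2 and 65.3 CPM in lining, 2.22, 14.2 and 248 CPM in interstitial and 99.4, 99.9 and 99.5 CPM in BMDM. Interstitial F alone exceeded BMDM, and lining C was the highest of its group. Slc2a1 was called in no comparison, with a log2 difference of lining from interstitial of -1.06 ± 1.30 (adjusted p = 0.731). Without interstitial F the difference was 2.07 (adjusted p = 0.0357), and without lining C and interstitial F it was 1.66 (adjusted p = 0.071).

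Slc16a3 (ENSMUSG00000025161, chr11:120948480-120960868, plus strand), the lactate exporter of glycolytic cells, was at 141, 119 and 129.5 CPM in lining, 28.8, 46.0 and 287 CPM in interstitial and 85.2, 87.5 and 80.0 CPM in BMDM. Interstitial F stood above all other libraries and interstitial D and E below all of them. The log2 difference of interstitial from BMDM was 0.53 ± 0.76 with all libraries (adjusted p = 0.611), -1.15 without interstitial F (adjusted p = 0.000764) and -1.13 without lining C and interstitial F (adjusted p = 0.00189). Slc2a6 was at 242, 207 and 124 CPM in lining, 12.0, 26.4 and 87.9 CPM in interstitial and 99.9, 92.3 and 114 CPM in BMDM. Although all lining libraries exceeded all interstitial ones, the difference of 2.15 ± 0.62 was not called (adjusted p = 0.0978), and without lining C and interstitial F it was 3.41 (adjusted p = 0.000812). Slc2a3, the high-affinity glucose carrier, was called in no comparison, at 10.5 to 28.2 CPM in lining, 11.5 to 73.3 CPM in interstitial and 31.1 to 31.9 CPM in BMDM.

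Genes of the low-oxygen response followed the same libraries. Vegfa was at 3.40, 3.34 and 21.4 CPM in lining, 0, 5.37 and 156 CPM in interstitial and 30.2, 26.5 and 36.1 CPM in BMDM. Egln3, an oxygen-sensing hydroxylase, was at 0.485, 0.477 and 13.1 CPM in lining, 0, 0.728 and 42.3 CPM in interstitial and 3.63, 3.38 and 2.35 CPM in BMDM. In both genes interstitial F was the highest library and lining C the highest of its group. The list of 8 such genes was chosen after these values had been seen, none of the 8 was called between lining and interstitial, and its part in the spread of Slc2a1 and Slc16a3 was not tested.

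**Figure D4:**
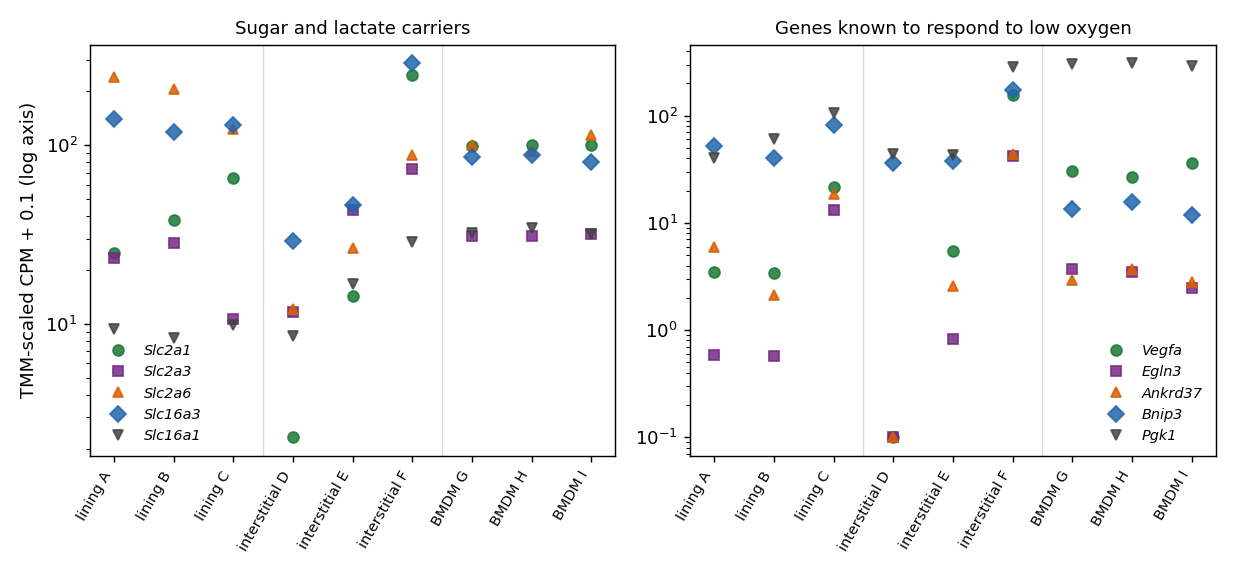
Level by library of 5 sugar and lactate carriers (left panel) and 5 genes of the low-oxygen response (right panel), in TMM-scaled CPM plus 0.1 on a log axis. Interstitial F lies above interstitial D and E for all 10 genes, with Slc2a1 at 248 CPM against 2.22 and 14.2 CPM and Vegfa at 156 CPM against 0 and 5.37 CPM.

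The starts of Slc2a1 and Slc16a3 are shown because each holds matches to the core of the hypoxia response element. The core was searched as ACGTG or GCGTG on both strands of the 250 bases before each start, and it is found in 38.6% of all 32851 promoters and 59.6% of the 141 members with an entry. The letters ACGTG also occur within the E-box CACGTG. The RefSeq starts (GRCm38.p6) of Slc16a3 and Slc2a1 lie 587 and 34 bases downstream of the gene starts in the count table. The Slc16a3 window therefore lies wholly inside the gene as counted, and the Slc2a1 window partly. In the 200 bases before the RefSeq start, Slc16a3 (chr11:120948867-120949066, plus strand) and Slc2a1 (chr4:119108545-119108744, plus strand) hold 2 matches each, in capitals.
Slc16a3: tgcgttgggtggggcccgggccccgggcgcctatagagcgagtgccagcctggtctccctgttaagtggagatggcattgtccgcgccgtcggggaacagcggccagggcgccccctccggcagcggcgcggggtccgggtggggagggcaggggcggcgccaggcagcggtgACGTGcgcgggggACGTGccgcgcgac
Slc2a1: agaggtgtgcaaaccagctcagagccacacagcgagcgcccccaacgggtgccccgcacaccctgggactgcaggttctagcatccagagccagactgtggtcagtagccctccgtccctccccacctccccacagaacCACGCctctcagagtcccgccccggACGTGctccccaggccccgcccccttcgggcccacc

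Other sugar and monocarboxylate carriers were steadier. Slc16a1, which carries lactate and ketone bodies in either direction, was at 9.21, 8.21 and 9.76 CPM in lining and 31.9, 34.1 and 31.5 CPM in BMDM, a log2 difference of -1.86 ± 0.37 (adjusted p = 0.00159), with interstitial spread between them at 8.42, 16.6 and 28.7 CPM. Embigin (Emb), a chaperone of monocarboxylate carriers, was lower in both sorted groups, at 11.6, 31.8 and 48.4 CPM in lining, 76.2, 52.6 and 66.3 CPM in interstitial and 244, 206 and 221 CPM in BMDM, while the chaperone basigin (Bsg) was called in no comparison. Slc16a7, a pyruvate carrier of high affinity, was higher in interstitial than in BMDM by 1.18 ± 0.26 (adjusted p = 0.0032). Slc37a2, a sugar-phosphate carrier of macrophage endoplasmic reticulum, was lower than the BMDM mean of 351 ± 14.8 CPM in lining, at 204 ± 46.6 CPM (adjusted p = 0.00541), and in interstitial, at 131 ± 27.6 CPM (adjusted p = 8.51e-05). Slc37a4, the glucose-6-phosphate carrier of the same membrane, was higher, by 1.32 ± 0.27 in lining (adjusted p = 0.00175) and 1.22 ± 0.26 in interstitial (adjusted p = 0.00258).

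Of 10 carriers of endosomes and lysosomes, 6 were higher and 1 lower than in BMDM in each sorted population, and none was called between lining and interstitial. The called share was 70% in both, beside 43.5% of all genes tested in lining and 44.8% in interstitial. In each population 3 of these calls were lost in a fit without 1 library. Slc9a9 (chr9:94669909-95230445, plus strand), a sodium-proton exchanger of recycling endosomes, was at 168, 142 and 148 CPM in lining, 405, 165 and 125 CPM in interstitial and 33.6, 33.6 and 30.2 CPM in BMDM. All sorted libraries exceeded BMDM and interstitial D was the highest; the log2 difference was 2.23 ± 0.37 in lining (adjusted p = 0.000992) and 2.82 ± 0.38 in interstitial (adjusted p = 0.00023; 2.13 without interstitial D). Slc17a5, which exports sialic acid from lysosomes, was at 162, 142 and 96.5 CPM in lining, 102, 89.7 and 74.5 CPM in interstitial and 41.6, 41.6 and 43.8 CPM in BMDM. Both sorted groups lay above BMDM, by 1.66 ± 0.20 (adjusted p = 3.12e-05) and 1.06 ± 0.19 (adjusted p = 0.000857). Slc46a3, a lysosomal relative of the folate carrier, had means of 30.7 ± 1.76, 32.7 ± 17.1 and 13.4 ± 0.917 CPM and was called in lining (adjusted p = 0.0108) and in interstitial (adjusted p = 0.00755).

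Calls for the lysosomal amino acid carriers were less stable. Slc36a1, a proton-coupled exporter, was higher in lining by 0.88 ± 0.16 (adjusted p = 0.000733) in every fit without 1 library, but its call in interstitial, 0.41 ± 0.16 (adjusted p = 0.0484), was lost without lining C or any 1 interstitial or BMDM library (adjusted p up to 0.177). Slc38a9, the arginine sensor of lysosomal mTORC1, had a log2 difference of 0.79 ± 0.29 in lining (adjusted p = 0.0415), lost without lining B or C, interstitial E or F or any 1 BMDM library (adjusted p up to 0.202). In interstitial it had 0.92 ± 0.28 (adjusted p = 0.0203), lost without interstitial E or F or any 1 BMDM library (adjusted p up to 0.0762). Slc29a3, the lysosomal nucleoside exporter, was higher in interstitial by 1.09 ± 0.23 (adjusted p = 0.00231), while its lining call, 0.62 ± 0.23 (adjusted p = 0.0471), was lost in every fit without 1 library except that without lining A (adjusted p up to 0.325). The histidine and peptide carrier Slc15a3, by contrast, was at 25.3, 64.8 and 107 CPM in interstitial against 183, 195 and 149.9 CPM in BMDM, a difference of -1.40 ± 0.38 (adjusted p = 0.014; 0.0506 without BMDM H). Slc15a4 and Slc38a7 were called in no comparison.

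Carriers of nucleosides, nucleobases and vitamins went in both directions against BMDM. Slc29a1 (chr17:45585200-45599606, minus strand), the equilibrative nucleoside carrier of the plasma membrane, was at 143, 177 and 142 CPM in lining, 157, 156 and 158 CPM in interstitial and 57.9, 60.9 and 57.9 CPM in BMDM. Both sorted groups stood above BMDM by nearly the same step, 1.39 ± 0.13 (adjusted p = 5.19e-06) and 1.42 ± 0.13 (adjusted p = 4.18e-06), and overlapped each other. Slc43a3, a purine nucleobase carrier, was the reverse, at 0.970, 6.68 and 13.9 CPM in lining, 4.43, 2.18 and 4.46 CPM in interstitial and 50.4, 49.1 and 49.1 CPM in BMDM, with log2 differences of -2.76 ± 0.52 (adjusted p = 0.00108; -3.39 without lining C) and -3.84 ± 0.56 (adjusted p = 0.000149). The riboflavin carrier Slc52a3 was at 5.42 to 6.57 CPM in BMDM and held 1 count in lining, so that the ratio of BMDM to lining was 93.4 (counting interval 16.7 to 3700), 29.0 without lining B and at least 25.7-fold without lining C. Its interstitial values of 0, 2.73 and 4.04 CPM lay below BMDM without a call (adjusted p = 0.232).

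Ion carriers of the sodium-proton exchanger families split by member. Slc9a4, a plasma membrane exchanger, was at 2.91, 9.07 and 7.88 CPM in lining, 12.0, 8.10 and 14.2 CPM in interstitial and 0.432, 0.546 and 0.507 CPM in BMDM, higher by 3.75 ± 0.59 (adjusted p = 0.000304) and 4.49 ± 0.60 (adjusted p = 8.21e-05). Slc9b2, an exchanger induced in osteoclast differentiation, was at 28.3, 22.2 and 38.2 CPM in BMDM, 1.94, 1.72 and 11.3 CPM in lining and 0, 2.82 and 1.91 CPM in interstitial. It was lower by 2.67 ± 0.72 in lining (adjusted p = 0.0109) and 3.94 ± 0.76 in interstitial (adjusted p = 0.00139), values that were -4.06 without lining C and -4.62 without interstitial E. Slc9a7, an exchanger of the Golgi, was lower by 2.43 ± 0.63 in lining (adjusted p = 0.00807; -3.17 without lining C) and 2.15 ± 0.59 in interstitial (adjusted p = 0.0106; -2.77 without interstitial E). Neither the bicarbonate carrier Slc4a7 nor the chloride carrier Slc12a2 was called. Slc20a1, a phosphate carrier, was lower than the BMDM mean of 178 ± 0.818 CPM by 1.07 ± 0.29 in lining (adjusted p = 0.0125) and by 0.95 ± 0.29 in interstitial (adjusted p = 0.0207), the latter call lost without any 1 BMDM library (adjusted p up to 0.0551).

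Most mitochondrial carriers that were called had lower levels than in BMDM. Slc25a4, an adenine nucleotide carrier, had means of 129 ± 29.0, 136 ± 15.0 and 186 ± 8.87 CPM, with log2 differences of -0.53 ± 0.16 in lining (adjusted p = 0.0199) and -0.45 ± 0.16 in interstitial (adjusted p = 0.0375). The first call was lost without lining B or C or BMDM H (adjusted p up to 0.0707), and the second without interstitial E or any 1 BMDM library (adjusted p up to 0.118). Slc25a5 and the phosphate carrier Slc25a3 were called in no comparison. Slc25a1 was lower in interstitial than in BMDM by 1.44 ± 0.20 (adjusted p = 9.44e-05), and Slc25a11 by 0.75 ± 0.14 (adjusted p = 0.00099), in every fit without 1 library. Slc25a23, a calcium-dependent ATP-magnesium carrier, was at 2.42, 7.83 and 5.63 CPM in lining, 9.31, 10.9 and 6.37 CPM in interstitial and 26.7, 25.0 and 30.7 CPM in BMDM, lower by 2.27 ± 0.39 (adjusted p = 0.000562) and 1.62 ± 0.37 (adjusted p = 0.00368). Slc25a43, an orphan, was at 0, 0.573 and 0 CPM in lining and 4.32, 5.32 and 4.93 CPM in BMDM, a fitted difference of -3.89 ± 0.94 (adjusted p = 0.00545); without lining B the lining group held no count and the difference was at least 7.62-fold.

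Among members near absent from BMDM, the scaffold Slc9a3r2 (ENSMUSG00000002504, chr17:24639282-24650305, minus strand) was the most abundant in the sorted cells. It binds sodium-proton exchangers and other membrane proteins and is no carrier. It was at 174, 121 and 90.9 CPM in lining, 60.7, 64.3 and 70.9 CPM in interstitial and 0.995, 0.696 and 0.968 CPM in BMDM. The groups did not overlap, with log2 differences from BMDM of 7.15 ± 0.30 in lining (adjusted p = 6.38e-09) and 6.18 ± 0.29 in interstitial (adjusted p = 1.44e-08). Lining exceeded interstitial by 0.97 ± 0.22 (adjusted p = 0.0238), which was no longer called on leaving out lining A, lining B, interstitial D or interstitial E (adjusted p up to 0.0995). Endothelial cells and fibroblasts can also express this gene; the 6 endothelial markers summed to 7.28 to 12.6 CPM in lining, 26.4 to 42.9 CPM in interstitial and 45.7 to 50.6 CPM in BMDM. Most of the BMDM sum was Kdr, with a mean of 46.0 ± 2.76 CPM against 1.64 ± 1.57 CPM in lining and 4.15 ± 3.70 CPM in interstitial. Of the 4 endothelial markers that passed the filter, Pecam1, Cdh5 and Tek were higher in interstitial than in BMDM and Kdr was lower, while in lining Tek was higher and Kdr lower. Pecam1 had means of 2.69 ± 1.76 CPM in lining, 17.3 ± 14.1 CPM in interstitial and 0.893 ± 0.0160 CPM in BMDM, and was called lower in lining than in interstitial (adjusted p = 0.0446). That Pecam1 call was lost without interstitial F, any 1 lining library or any 1 BMDM library (edgeR adjusted p up to 0.169). It was also lost with only the 2 groups in the fit, and without both lining C and interstitial F (edgeR adjusted p = 0.17). Interstitial F held 33.6 CPM of Pecam1 against 9.31 and 9.10 CPM in interstitial D and E. The interstitial call of Cdh5 was lost without BMDM H (adjusted p = 0.0579), and both calls of Tek, a gene with at most 41 counts in a library, were lost in several fits without 1 library. Cldn5 had no count in BMDM. The part of these markers and of the fibroblast markers in the values of Slc9a3r2 was not tested.

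Slc10a6, which carries sulfated steroids, was at 1.94, 4.20 and 6.01 CPM in lining and 23.5, 4.91 and 3.40 CPM in interstitial, with no count in any BMDM library. Against a floor of 3 counts over the BMDM group it was at least 91.1-fold higher in lining and at least 148-fold higher in interstitial. These bounds rested on depth and on interstitial D: the first was 58.7 without BMDM G and 60.7 without BMDM I, and the second was 96.5 without interstitial D and 95.5 without BMDM G. The long-chain acyl-CoA synthetase Slc27a3 was at 3.40, 3.63 and 8.63 CPM in lining, 12.9, 16.5 and 23.1 CPM in interstitial and 0.908, 0.944 and 1.11 CPM in BMDM, higher by 2.37 ± 0.51 (adjusted p = 0.00285) and 4.14 ± 0.52 (adjusted p = 5e-05). The vesicular polyamine carrier Slc18b1 was at 10.7, 21.0 and 27.4 CPM in lining, 23.9, 24.4 and 21.2 CPM in interstitial and 2.12, 2.14 and 1.52 CPM in BMDM, higher by 3.36 ± 0.38 (adjusted p = 2.26e-05) and 3.58 ± 0.38 (adjusted p = 1.28e-05). Slc22a17, the lipocalin-2 receptor, was at 5.33, 11.4 and 8.63 CPM in lining, 3.99, 2.37 and 1.49 CPM in interstitial and 0.173, 0.149 and 0.184 CPM in BMDM, higher by 5.57 ± 0.77 (adjusted p = 0.000109) and 3.81 ± 0.74 (adjusted p = 0.00132). These carriers, and Slc15a2, Slc14a1, Slc16a9, Slc34a1, Slc3a1 and Slc13a3 below, were under 5 CPM in BMDM. They are members only through sorted cells, so their differences from BMDM are a description.

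Slc15a2, a proton-coupled peptide carrier, was at 10.2, 8.97 and 31.2 CPM in lining, 60.3, 19.5 and 9.77 CPM in interstitial and 0, 0.646 and 1.52 CPM in BMDM. Its log2 differences were 4.50 ± 1.13 in lining (adjusted p = 0.0108) and 5.32 ± 1.15 in interstitial (adjusted p = 0.00483). The lining call was lost without BMDM H (adjusted p = 0.0626), and its value was 3.69 without lining C, 3.90 without BMDM G and 5.63 without BMDM I. In interstitial the value was 4.31 without interstitial D, 4.71 without BMDM G and 6.47 without BMDM I. The urea carrier Slc14a1 was at 3.88, 7.83 and 13.5 CPM in lining, 10.2, 20.6 and 13.2 CPM in interstitial and 0.908, 1.04 and 0.830 CPM in BMDM, higher by 3.17 ± 0.54 (adjusted p = 0.000529) and 3.98 ± 0.54 (adjusted p = 9.48e-05). Red cell precursors also express this urea carrier, and the 7 erythroid markers summed to 18.6 to 161 CPM in lining, 13.5 to 426 CPM in interstitial and 0.894 to 4.66 CPM in BMDM, with Klf1 at 0 in interstitial; their part was not tested. Slc16a9, a carnitine carrier, was at 10.6, 3.46 and 2.97 CPM in interstitial and 0.323 to 0.397 CPM in BMDM (3.86 ± 1.04, adjusted p = 0.00956), 3.06 without interstitial D and not called without any 1 BMDM library (adjusted p up to 0.061).

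A further set consisted of carriers best known from kidney tubules. Slc34a1, the sodium-phosphate carrier of the proximal tubule, had 76, 40 and 63 counts in lining, 11, 29 and 52 in interstitial and 8, 11 and 12 in BMDM, or 36.9, 3.82 and 23.6 CPM, 4.88, 2.64 and 11.0 CPM and 0.346, 0.546 and 0.553 CPM. Its log2 difference from BMDM was 5.41 ± 0.87 in lining (adjusted p = 0.000371; 4.73 without lining A) and 3.64 ± 0.83 in interstitial (adjusted p = 0.00375; 2.83 without interstitial F). Slc3a1, the heavy chain of the renal cystine carrier, had 22, 15 and 11 counts in lining, 1, 11 and 21 in interstitial and 5, 2 and 1 in BMDM. The call in lining, 5.29 ± 1.22 (adjusted p = 0.00422), moved to 4.31 without lining A, and that in interstitial, 3.93 ± 1.18 (adjusted p = 0.0168), was lost without interstitial F or BMDM H or I (adjusted p up to 0.1). Without BMDM G the BMDM group held 3 counts of Slc3a1, and the ratio of summed counts scaled for depth was 44.0 in lining (counting interval 14.2 to 221) and 25.6 in interstitial (8.04 to 131). Slc13a3, a dicarboxylate carrier of kidney and other tissues, was steadier, at 18.4, 13.6 and 16.5 CPM in lining, 4.43, 7.64 and 13.2 CPM in interstitial and 1.77, 1.04 and 1.29 CPM in BMDM, higher by 3.54 ± 0.50 (adjusted p = 0.000134) and 2.63 ± 0.49 (adjusted p = 0.000941).

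Transcripts that define kidney cells were present in the same libraries. The summed level of 8 kidney genes, a list chosen after these values had been seen, was 64.0, 7.73 and 43.2 CPM in lining, 4.43, 5.82 and 24.2 CPM in interstitial and 1.21, 2.04 and 1.38 CPM in BMDM. Umod, which encodes the urinary protein uromodulin, had 35, 13 and 33 counts in lining, 3, 12 and 29 in interstitial and 5, 12 and 4 in BMDM. Lining A and C and interstitial F held the highest levels of both this list and Slc34a1, and none of the 8 genes was at 0 over a whole group. Of the 8, 5 passed the filter on low counts, and all 5 were higher in lining than in BMDM and 2 in interstitial. The part of kidney transcripts in the values of Slc34a1, Slc3a1 and Slc13a3 was not tested.

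**Figure D5:**
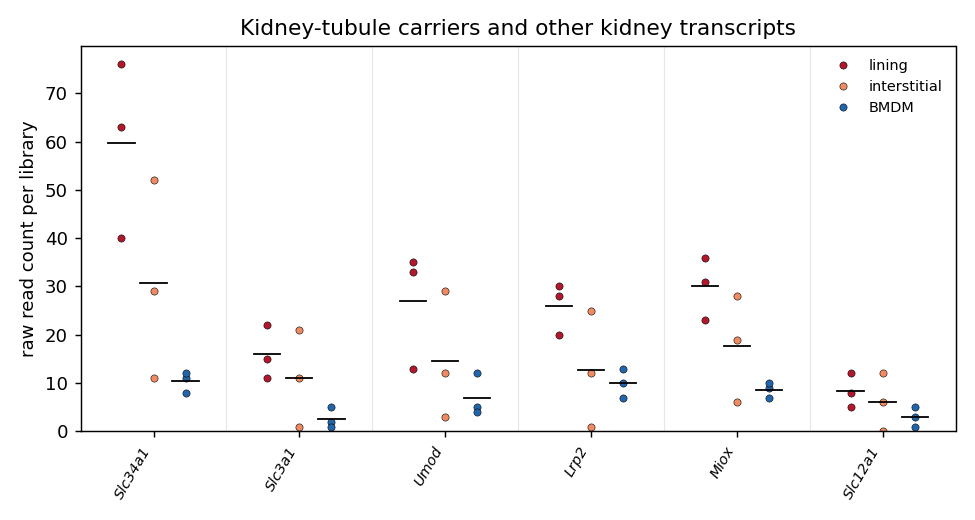
Raw counts per library of Slc34a1, Slc3a1 and 4 genes that define kidney cells (Umod, Lrp2, Miox and Slc12a1). Counts are not scaled for depth, and BMDM libraries are the deepest; Slc34a1 runs from 8 to 12 counts in BMDM and from 40 to 76 counts in lining.

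Carriers that belong to SLC families but carry other symbols were also called in both directions against BMDM. Of 31 such genes, 27 passed the filter, 3 were higher in lining than in interstitial, 8 were higher and 5 lower in lining than in BMDM, and 9 were higher and 7 lower in interstitial than in BMDM. The called shares were 11.1%, 48.1% and 59.3% of the 27, beside 5.79%, 43.5% and 44.8% of all genes tested, and 1, 2 and 4 of these calls were lost in a fit without 1 library. Slco2b1, an organic anion carrier, was at 900, 788 and 796 CPM in lining, 520.0, 378 and 215 CPM in interstitial and 2.38, 3.28 and 2.26 CPM in BMDM. Its call between lining and interstitial (adjusted p = 0.0216) was lost without lining A, lining B or interstitial E (adjusted p up to 0.094). The call of Npc1, a lysosomal cholesterol carrier, higher in lining than in interstitial (adjusted p = 0.0074), was lost with only the 2 groups in the fit (adjusted p = 0.0542). Slco4a1, a thyroid hormone carrier, was at 683, 586 and 795 CPM in BMDM and at most 2.34 CPM in any sorted library. Spns2, the sphingosine-1-phosphate exporter, was at 61.6, 30.4 and 33.4 CPM in lining, 4.43, 7.28 and 6.37 CPM in interstitial and 0.173 CPM or less in BMDM, and was called higher in lining than in interstitial (adjusted p = 0.00137). These 4 were named after their values had been seen.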

How the data were processed

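Reads were demultiplexed with bcl2fastq 2.17.1.14, trimmed with cutadapt 1.15 and aligned with STAR 2.5.4a to GRCm38, per the submitters' processing notes, which also name DESeq2 1.20.0 and R 3.5.0. The authors deposited whole-number counts per gene, made with featureCounts 1.6.1 over exons of Ensembl release 91, counting the reverse strand, per the file headers. Libraries came from 500 ng RNA with a stranded mRNA kit and were read as 101 bp single ends, per the labels' protocols, with no molecular identifiers, so intervals cover counting error only. With that counting, reads that map to several places or overlap several genes are not assigned, which lowers members with copies or with overlapping neighbours on the same strand (3 members share over 10% of their exon bases). Symbols were matched by gene ID for 53274 of 53465 genes.

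The deposited counts were tested with edgeR 4.0.16 (R 4.3.3; filterByExpr with a minimum count of 10 and total of 15, TMM scaling, robust quasi-likelihood fit, 2-sided F test). All 9 libraries entered 1 fit with 1 mean per group and 6 residual degrees of freedom. P-values were adjusted by the Benjamini-Hochberg method over the 12610 genes that passed the filter, which included all 181 members, and calls were made at adjusted p under 0.05. The standard error is the absolute log2 fold change divided by the square root of F. The procedure was tested on simulated counts. Promoters came from RefSeq (GRCm38.p6), where 141 members had an entry. Alternatives were DESeq2 1.42.0, limma-voom (limma 3.58.1), RLE factors, plain library totals, no filter, a filter at a mean of 1 CPM, fits of only the 2 groups compared and 9 fits without 1 library; the fit without lining C and interstitial F was added after seeing the data. Other values were computed with Python 3.11.15, pandas 2.3.3 and scipy 1.17.1, and figures drawn with matplotlib 3.10.9.

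Named genes were, for each comparison, the 10 members with the largest fold change in each direction among called members whose libraries did not overlap, the 8 with the highest TPM in each group, the 3 on each side of the threshold and fixed lists of transport roles. The members, roles and gene lists were chosen with earlier results of these data known. Named members under 5 CPM in a group, such as Slc6a12, Slc6a13, Slc9a3r2 and Slc10a6, were members only through their higher groups. Their differences from the lower groups are therefore a description. Values of some single genes are not reported here.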

Additional observations from a re-analysis of the deposited data

How the results depend on the processing

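The number of members higher in lining than in interstitial, 12 in the main analysis, was 7 with only the 2 groups compared, 21 without lining C and interstitial F, and 8 to 19 when 1 library was left out. The number lower in lining, 2 in the main analysis, was 10 with DESeq2, 0 with only the 2 groups, 9 without lining C and interstitial F, and 0 to 7 without 1 library. The share of all genes called in this comparison moved too, from 5.79% in the main analysis to 10.3% with DESeq2 and 3.38% with only the 2 groups. It was 8.61% without lining C and interstitial F, and 3.02% to 6.84% without 1 library. Members lower in lining than in BMDM, 41 in the main analysis, ranged from 27 (without BMDM H) to 50 without 1 library. In the fits without 1 library, members higher in lining than in BMDM ranged from 39 to 53, higher in interstitial from 35 to 54 and lower in interstitial from 34 to 46. Over the other settings these counts were 40 to 57, 40 to 62 and 41 to 56. Of all genes, 30.7% to 48.8% were called in lining against BMDM without 1 library, and 25.3% to 54.0% over the other settings. For interstitial against BMDM these shares were 32.3% to 47.8% and 27.3% to 56.6%. The cause of these changes was not tested.

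Among the named members, direction turned for 2 genes, counting only changes with a call in the main or the altered fit. Slc2a1 in lining against interstitial was -1.06 on the log2 scale with all libraries and 2.07 without interstitial F, in a range of -1.61 to 2.07 over the fits without 1 library. Slc16a3 in interstitial against BMDM was 0.53 with all libraries, -1.15 without interstitial F (range without 1 library -1.15 to 0.93) and -1.13 without lining C and interstitial F. Scaling by plain library totals shifted the median of all genes in lining against BMDM by -0.11, and testing with no filter shifted it by -0.17 in lining and -0.18 in interstitial against BMDM; the members' medians were then -0.11, -0.12 and -0.12.

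No paired analysis was possible because the labels give each library its own letter and no replicate number is shared between groups. At 2194920 to 22499823 counts per library, a level under 0.133 to 1.37 CPM, depending on the library, rests on fewer than 3 counts, which limits Slc10a6, Slc52a3, Slc6a13, Slc25a43, Slc39a12 and Slc3a1.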
